A study of Mus musculus with 6 samples.

Results

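The 3 libraries described here hold the polyA RNA of interscapular brown adipose tissue from C57BL/6N wild-type mice (genotype wt/wt) aged 20 weeks and fed chow. They were taken by their genotype label and make up 3 of the 6 libraries of the series. The other 3, from mice labelled as a knockout of a truncated Adcy3 transcript (Adcy3-AT), were not analysed here. Every one of the 54385 gene rows of the deposited table was described, across these 3 libraries and with no comparison of genotypes. The sample labels say interscapular and the series text says inguinal for the same tissue. RNA was extracted with TRIzol and spin columns, and the libraries were paired-end. The libraries were prepared with NEBNext Ultra II reagents and read on a NovaSeq6000. The labels name neither sex nor housing temperature, nor do they say whether the 3 replicates come from separate mice, and the spread among them may be technical in part.

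Brown adipose tissue makes heat. Its adipocytes are packed with mitochondria, and UCP1 in the inner membrane lets protons back into the matrix without making ATP, so that the energy of burnt fatty acids and glucose leaves as heat. Noradrenaline from sympathetic nerves drives this through the β3-adrenergic receptor, adenylyl cyclase and protein kinase A, which release fatty acids from lipid droplets. The droplets are refilled by uptake from the blood and by fatty acid synthesis within the cell.

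Each library held 13758492 to 17489589 estimated counts. CPM is a gene's counts per 1000000 counts of its library, and so the share of the counts that the gene took. The level per length, by which genes are set against each other, is counts divided by the length of the gene's merged exons and scaled so that all genes of a library sum to 1000000. A total of 12427 genes reached 1 CPM in all 3 libraries, 11452 of them protein-coding, and 24058 rows were at 0 in all 3. A row at 0 could still have held up to 0.172 to 0.218 CPM, since 0 counts allow up to 3 by counting error alone.

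Markers of the tissue were checked first. All 10 listed markers of brown adipocytes reached a mean of 1 CPM, led per length by Ucp1, Cox8b and Cidea. Ucp1 stood at 5215, 5342 and 3732 CPM in replicates 1, 2 and 3. Zic1, a transcription factor of the interscapular depot, stood at 12.8, 11.6 and 18.1 CPM and Lhx8 at 2.6, 1.45 and 4.86 CPM. The Hox genes of inguinal and other caudal fat were low: Hoxc9 was at 0.142, 0.157 and 0.124 CPM and Hoxc10 at 0.0649, 0 and 0.0635 CPM, at or below what 0 counts allow, while Hoxc8 was at 6.29, 3.2 and 9.94 CPM. The classical brown markers were thus present in every library, with Ucp1 lowest in replicate 3. Markers of lymphocytes summed to 6.17, 5.78 and 7.83 CPM and those of mesothelium and epithelium to 0.324, 0 and 0.0572 CPM. The nerve and Schwann cell list summed to 143, 129 and 158 CPM, and 7 of its 10 genes reached a mean of 1 CPM. Of that list Th and Dbh, the catecholamine enzymes, were at 0 in all 3 libraries. In bulk tissue, fewer cells of a type and less RNA per cell cannot be told apart.

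The transcriptome was concentrated in few genes. Replicates 1, 2 and 3 took 26.9, 26.8 and 26.1% of their counts from their 10 most abundant genes. The next 90 brought this to 48.2, 48.6 and 47.2%. 50% of all counts came from 120, 116 and 132 genes, and 90% from 3897, 3900 and 3969. Without the mitochondrially encoded genes the first of these counts became 353, 359 and 389. By mean CPM, 11 genes were at or above 10000 CPM, 8 of them encoded in the mitochondrial genome, and held 27.6% of the counts. At the other end, 5230 genes between 1 and 10 CPM held 2.18%.

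**Figure D1:**
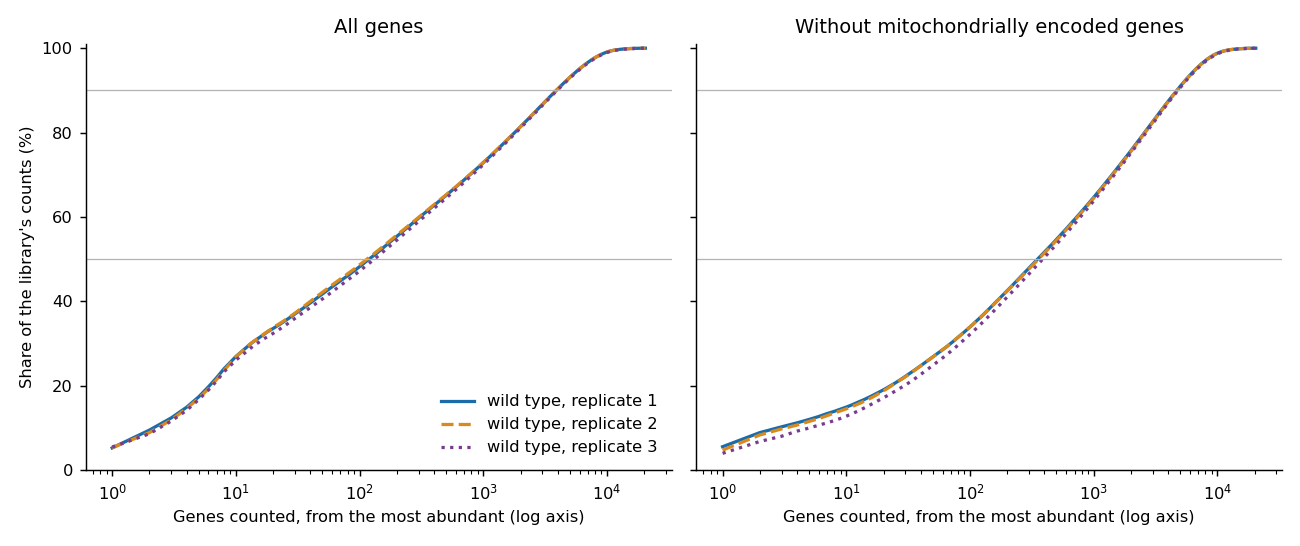
Share of a library's counts (%) held by its most abundant genes, against the number of genes counted (log axis), for the 3 wild-type libraries, with all genes (left) and without mitochondrially encoded genes (right). Grey lines mark 50 and 90%; on the left the curves reach 50% at 116 to 132 genes, on the right at 353 to 389, with replicate 3 the least concentrated.

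RNA of the mitochondrial genome, which encodes core subunits of the respiratory chain, took 23.8, 24.4 and 24.3% of the counts in replicates 1, 2 and 3. Per length it made up 52.7% ± 0.649 (SD, n = 3) of the total level. The 13 protein-coding genes held 22.9% ± 0.368 of the counts and the 2 ribosomal RNAs 1.21% ± 0.106; how far polyA selection retained the latter is not known. The share differed among libraries by less than 1 percentage point. Subunits of ATP synthase and cytochrome oxidase led per length. mt-Atp6 had a level of 67616 ± 1214, mt-Co2 of 65371 ± 3427 and mt-Co1 of 64827 ± 328, where the range of mt-Co2 overlapped those of both others, which lay apart from each other. mt-Atp8 followed at 53203 ± 1904, then mt-Co3 at 50370.5 ± 567 and mt-Cytb, of complex III, at 49217 ± 1304; the last 2 overlapped. The complex I subunits lay lower. mt-Nd1 and mt-Nd4 had levels of 30901 ± 2992 and 30508 ± 341, mt-Nd5 of 9652 ± 1191 and mt-Nd3 of 7889 ± 466. mt-Nd6, the one protein-coding gene read from the light strand, had a level of 11076 ± 399. mt-Co1 was the most abundant row of the table by counts, at 52555, 53053 and 54737 CPM.

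Among nuclear genes, enzymes of fat synthesis led. Scd1 (chr19:44394455-44407879, GRCm38), the desaturase that makes oleate and palmitoleate, stood at 42235, 35727 and 30070.4 CPM, a mean of 36011 ± 6087 CPM (SD, n = 3). Replicate 1 was the highest and replicate 3 the lowest. Its level per length, 16400.3, 13752 and 11313, was the highest of any nuclear gene in each library, counted without unprocessed pseudogenes and microRNA rows. Gpd1 (chr15:99717515-99725005), which turns a glycolytic intermediate into the glycerol backbone of triglycerides, came next with levels of 6701, 6893 and 5831, and its range did not reach that of Scd1. Ucp1 (chr8:83290352-83298452) had levels of 6055, 6148 and 4198. Its range overlapped that of Gpd1. It ranked 3 in replicates 1 and 2 and 4 in replicate 3, behind Cox6a1, whose levels were 4822, 4712 and 5095. Fasn (chr11:120805846-120824547), fatty acid synthase, took 25449.8, 27194 and 21249 CPM, but its exons are long and its levels were 4416, 4678 and 3572. Below it lay Cox8b at 3489.6 ± 219.9, Fabp4 at 3237 ± 465, Cidea at 3075 ± 139 and Thrsp at 2805 ± 438. From Fasn to Thrsp each gene's range overlapped that of the next.

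The order of the top nuclear genes depended on the length assigned to each. The merged exons of Fabp4, the fatty acid carrier of adipocytes, measure 4489 bases, and its principal transcript 896. With the principal transcript of every gene in place of merged exons, Fabp4 had the highest level, 13267 ± 1858, and Scd1 the next, 11453 ± 2119. Gpd1 then ranked 3, Cox6a1 4, Ucp1 5, Atp5b 6 and Fasn 8. This length was chosen after seeing the data. Planned choices moved some ranks further. With the median length of a gene's transcripts, Scd1 stayed at rank 1, whereas Ucp1 ranked 19, Cox8b 39 and Cidea 48, from 3, 6 and 8 with merged exons. With the longest transcript these 3 ranked 4, 12 and 14, and by CPM 7, 142 and 36.

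Effectors of thermogenesis took 1.19, 1.2 and 1.01% of the counts, with Ucp1 alone giving 0.476% on average. 25 of 27 listed genes reached a mean of 1 CPM. After Ucp1, Cox8b and Cidea the highest levels per length belonged to Cox7a1 at 959 ± 59.6, Letmd1 at 282 ± 17.4 and the potassium channel gene Kcnk3 at 262 ± 20.9. Dio2, the deiodinase that activates thyroid hormone in brown fat, had CPM values of 113, 121 and 91.8. Otop1 had 309, 323 and 276 CPM and Elovl3, a fatty acid elongase of brown fat, 135, 118 and 143. The regulators were low by comparison per length: Prdm16 had a level of 6.57 ± 1.35 and Ppargc1a one of 5.45 ± 1.38. Replicate 3 was the lowest library for Ucp1, Dio2, Otop1, Prdm16 and Ppargc1a, and the highest for Elovl3, Cox8b and Zic1. The secreted factors Fgf21 and Bmp8b were near the limit of detection, with Fgf21 at 0.13, 0.218 and 0.40 CPM and Bmp8b at 0.327, 0.0728 and 0.286 CPM.

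The nuclear genes of oxidative phosphorylation took 4.73, 4.59 and 4.69% of the counts, and 83 of 84 reached a mean of 1 CPM. The sums of the complexes varied little among libraries: the coefficient of variation (CV, SD over mean) was 2.8% for complex I, 4.94% for complex II, 1.81% for complex III with cytochrome c, 3.29% for complex IV and 1.9% for ATP synthase. In complex I, the entry point for NADH, 37 of 37 genes were detected, led per length by Ndufb9 at 1026 ± 50.2, Ndufa1 at 992 ± 55.9 and Ndufa4 at 886 ± 11.9. Ndufa4 is counted here with complex I, although its product is also assigned to cytochrome oxidase. Of complex II, the succinate dehydrogenase, Sdha had a level of 1192 ± 109 and Sdhc, the lowest, 282 ± 11. Uqcrfs1, the iron-sulphur protein of complex III, had a level of 1233 ± 19.1 and cytochrome c (Cycs) one of 157 ± 7.41. Within ATP synthase Atp5b, of the catalytic subunit, and Atp5a1 had levels of 2352 ± 79.8 and 2131 ± 94.7, above Atp5d, the next, at 682 ± 37. Atpif1, the inhibitor of the enzyme, had CPM values of 7.01, 5.06 and 5.6.

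The sums of the lists that burn fuel differed among libraries by CVs of 1.6% for fatty acid oxidation, 5.11% for the citric acid cycle and 2.99% for glycolysis. The fatty acid oxidation list held 2.83, 2.91 and 2.83% of the counts, with all 25 genes above 1 CPM. The thiolase Acaa2 and the dehydrogenases Acadl and Acadvl led per length, with levels of 2521 ± 78.9, 2267 ± 42.2 and 1949.9 ± 105. Cpt1b, the muscle-type carnitine transferase that admits fatty acids into mitochondria, had CPM values of 911, 935 and 836. Genes of the citric acid cycle and pyruvate entry took 2.76, 2.78 and 2.53%, where Pdha1 of pyruvate dehydrogenase had a level of 1024 ± 65.7. Ogdh and citrate synthase (Cs) were lowest in replicate 3, at 2619.9, 2684 and 2041 CPM and 2323, 2329.5 and 1903 CPM. Glycolysis and glucose uptake took 1.77, 1.69 and 1.78%, led by Aldoa at 2251 ± 123 and Eno1 at 1136 ± 22.8.

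Synthesis of fatty acids and triglycerides was the largest nuclear list of the 20 by counts, with 9.74, 9.33 and 8.04% in replicates 1, 2 and 3. The order of the libraries was that of Scd1, and the list's median gene differed little: the median over its genes of the log2 ratio of each library to the mean of the 3 was 0.00, 0.01 and -0.02. The share per length was 3.42% ± 0.321. Besides Scd1, Gpd1 and Fasn, high levels per length were held by Thrsp, which promotes fatty acid synthesis, at 2805 ± 438, Agpat2 at 1475 ± 119, Dgat2, which adds the last acyl chain to triglycerides, at 1414 ± 63.5, and ATP citrate lyase (Acly) at 982 ± 117. Thrsp was highest in replicate 3, at 2996, 2914 and 3934 CPM, unlike Scd1. The malic enzyme gene Me1 also had its highest value there, 756, 669.5 and 1083 CPM. Srebf1 and Mlxipl, the transcription factors of this pathway, stood at 732, 586 and 712 CPM and 432, 451 and 439 CPM. Of the list, Mogat2 alone was under 1 CPM, at 0.737, 0.581 and 0.793. Cholesterol synthesis was a small share and an even one, 0.163, 0.164 and 0.165%, with Insig1 the highest per length at 370.2 ± 8.67.

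Lipid droplet and lipolysis genes took 2.33, 2.2 and 2.58% and were highest in replicate 3. Fabp4 gave 7181, 6922 and 9193 CPM. Pnpla2, the adipose triglyceride lipase, had a level of 2057 ± 137 and hormone-sensitive lipase (Lipe) one of 377 ± 11.5. G0s2, an inhibitor of the former enzyme, had CPM values of 461, 309 and 422. Lipoprotein lipase (Lpl), which frees fatty acids from circulating particles, took 4037, 3469.8 and 3984 CPM. Plin1 stood at 1217, 1285 and 1267 CPM and varied little, whereas Plin4 was lowest in replicate 3, at 495, 562 and 327 CPM.

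**Figure D2:**
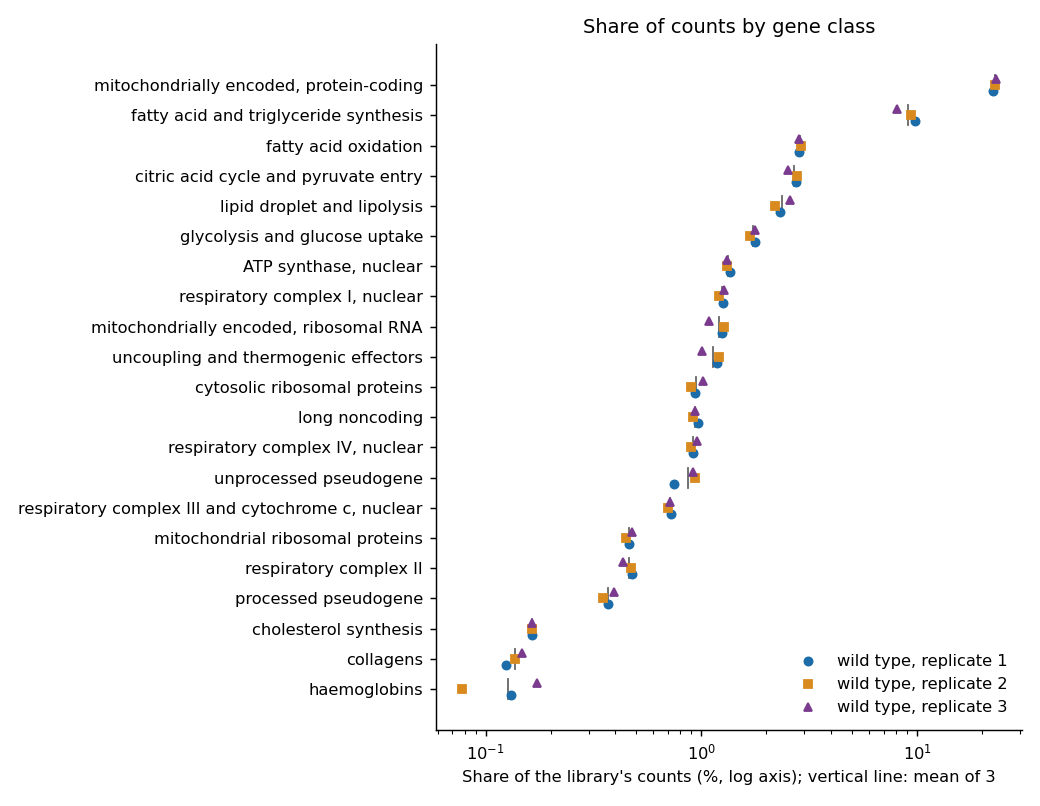
Share of each library's counts (%, log axis) held by gene classes, one symbol per wild-type library and a vertical line at the mean of 3. Mitochondrially encoded protein-coding genes hold 22.9% and fatty acid and triglyceride synthesis 9.04% on average; of the classes drawn, the haemoglobins differ most among libraries, from 0.078% in replicate 2 to 0.172% in replicate 3.

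Within families of related genes the dominant member was read from the level per length. Of 80 families, 75 had the same top member in all 3 libraries, and in 70 the lowest value of the top member exceeded the highest of the next. The top member held at least 90% of its family in 28 and under 60% in 25. The choice of length mattered in part: 62 families kept their top member under all 5 choices, raw CPM included, among them each of the 28 families past 90%.

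The energy families were mostly dominated by 1 gene. Ucp1 held 98.5, 98.4 and 98% of the uncoupling proteins, with Ucp3 at 134, 146 and 122 CPM and Ucp2 at 45.3, 42 and 51.8 CPM. Of the outer carnitine transferases Cpt1b held 99.2% ± 0.0933, of the hexokinases Hk2 95.3% ± 0.0063, of the glucose transporters the insulin-regulated Slc2a4 88.4% ± 0.803, of the glycerol kinases Gk 98.4% ± 0.23 and of the stearoyl-CoA desaturases Scd1 99.4% ± 0.10. Cytochrome oxidase used Cox4i1, Cox6a1 and Cox6b1 for over 99% of subunits 4, 6a and 6b. Its heart and muscle form Cox6a2 gave 0, 0.145 and 2.0 CPM. Pairs that shared their family were the ADP/ATP carriers, where Slc25a5 held 57.2% ± 1.72 and Slc25a4 42.7% ± 1.75, and the acetyl-CoA carboxylases, where Acacb, the form at the mitochondrial membrane, held 61.3% ± 1.25. In both pairs the order turned without length scaling, and the second pair also turned with each other transcript length. Pdk4, a kinase that shuts pyruvate out of the citric acid cycle, held 59.9, 72.6 and 55.7%, with its highest value in replicate 2.

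Handling of fat also had leading members. Of the fatty acid binding proteins Fabp4 held 73.5, 70.2 and 82.6% and Fabp3, the heart form also known from brown fat, 25.4, 29 and 16.1%. The balance thus tipped furthest to Fabp4 in replicate 3. These shares depend on length. From the means, Fabp4 held 75.7% with merged exons, 76.7% with the longest transcript and 84.1% with the median one. It held 93.3% with the principal transcript and 93.7% by CPM, which leaves less for Fabp3. Of the elongases Elovl6 held 63.1, 62.8 and 55.1% and Elovl3 24.6% ± 1.94. Cidea held 72.8% ± 1.02 of the CIDE proteins, which enlarge lipid droplets, and Cidec the next share, 26.9% ± 0.952. Aqp7, the glycerol channel of fat cells, held 99.9% ± 0.0409 of its family and Slc16a1, which carries lactate and pyruvate, 96.6% ± 0.512. The AKT and AMPK kinase families were less one-sided: Akt2 held 69.4% ± 3.19 and Prkaa1, of the AMPK complex, 73.4% ± 2.62. Of the lactate dehydrogenases Ldha held 53.6% ± 0.266 and Ldhb 42.4% ± 0.303, and their order was the same in every library and under every length.

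Subunits 8 and 7a of cytochrome oxidase each have a form known from muscle and brown fat, Cox8b and Cox7a1, and a general form, Cox8a and Cox7a2, and here both forms were abundant. Cox8b (chr7:140898945-140900446) held 56.7, 56.7 and 57.9% of subunit 8 in replicates 1, 2 and 3, with levels of 3413, 3318 and 3738. Cox8a (chr19:7215153-7217616) had levels of 2609.7, 2538 and 2722, below Cox8b in each library. By CPM the order turned, with 647, 634 and 731 CPM for Cox8b and 850.4, 834 and 915 CPM for Cox8a, since the merged exons of Cox8a are the longer. Cox7a1 (chr7:30184144-30186078) held 58.1, 60.4 and 56.3% of subunit 7a, Cox7a2 (chr9:79755361-79759878) 30.3% ± 1.76 and Cox7a2l 11.5% ± 0.355. For these pairs and Ucp1 the 150 bases before the transcription start in RefSeq (build GRCm38.p6) are shown 5′ to 3′ on the gene's strand, with CG dinucleotides in capitals, because the partners differ in how many they hold.
Ucp1: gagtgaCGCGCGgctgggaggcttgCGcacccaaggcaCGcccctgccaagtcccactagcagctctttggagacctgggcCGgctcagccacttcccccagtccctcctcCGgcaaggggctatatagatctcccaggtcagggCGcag
Cox8b: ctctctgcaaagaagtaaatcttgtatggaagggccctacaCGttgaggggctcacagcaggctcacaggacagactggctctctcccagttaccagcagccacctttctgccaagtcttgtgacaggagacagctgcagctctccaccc
Cox8a: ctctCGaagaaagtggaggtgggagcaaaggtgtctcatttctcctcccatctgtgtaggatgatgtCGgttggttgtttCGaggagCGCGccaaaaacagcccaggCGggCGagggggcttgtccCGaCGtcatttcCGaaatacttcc
Cox7a1: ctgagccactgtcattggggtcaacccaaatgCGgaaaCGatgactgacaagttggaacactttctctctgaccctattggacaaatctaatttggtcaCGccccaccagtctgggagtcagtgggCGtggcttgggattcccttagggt
Cox7a2: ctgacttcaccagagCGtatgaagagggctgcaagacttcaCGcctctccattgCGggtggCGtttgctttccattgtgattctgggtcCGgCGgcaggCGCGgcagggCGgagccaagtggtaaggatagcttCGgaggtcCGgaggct
The stretches lie at chr8:83290198-83290347 on the plus strand, chr7:140900447-140900596 and chr19:7217617-7217766 on the minus strand, chr7:30184021-30184170 on the plus strand and chr9:79759854-79760003 on the minus strand. Cox8b has 1 CG dinucleotide and Cox8a 10. Cox7a1 has 4 and Cox7a2 11, while Ucp1 has 8. Across protein-coding nuclear genes with a RefSeq window, the median was 4 for those under 1 CPM (2592 genes), 9 from 1 to 10 CPM (3194 genes) and 12 from 10 to 100 CPM (5209 genes). It was 12 from 100 to 1000 CPM (893 genes), the range of Cox8b, Cox8a, Cox7a1 and Cox7a2 by mean CPM. For the 56 genes at or above 1000 CPM it was 11. A gene under 1 CPM enters this count only where its mean was at least 0.1 CPM or a list names it.

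Short motifs were counted on both strands of the 300-base RefSeq windows, from 250 bases before to 50 after the start. The letters GCATGCGC, the core of the NRF1 site, were in 2.71% of all 32851 windows, in 5.19% of the 11936 windows of genes at 1 CPM or more in every library and in 15.1% of the 73 windows found for 68 of 84 nuclear oxidative phosphorylation genes. AAGGTCA, read by estrogen-related receptors, was in 4.72%, 3.25% and 12.3% of the same windows. CCGGAAG, read by ETS factors, was in 8.86%, 17.7% and 21.9%, and in 36.6% of the 71 windows of cytosolic ribosomal protein genes. TATAAA was in 13.6% of all windows, 7.14% of those of detected genes and 4.3% of the 93 windows found for 73 of the 100 highest nuclear genes per length. The exact letters TATAAA occur in the Cox8b window just after its start and in none of the windows of Cox8a, Cox7a1, Cox7a2 and Ucp1. Other spellings were not counted, such as the tatata in the stretch printed for Ucp1. These are counts of letters and carry no test.

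Along the adrenergic pathway, Adrb3 was the main β receptor, with 66.5, 65.2 and 72% of that family and 121, 131 and 133 CPM. Adrb1 followed at 46.5, 53.8 and 39.4 CPM. Of the α receptors, Adra1d and Adra1a had levels of 14.5 ± 2.21 and 12.4 ± 1.34, which overlapped, and Adra1a led under every other length. Gnas, the stimulatory G protein subunit next in the chain, took 2429.6, 2888 and 1856 CPM and was lowest in replicate 3. Among 10 adenylyl cyclases, which make cyclic AMP, Adcy3 had a level of 62.2 ± 12.6 and Adcy6 one of 51 ± 9.83. Their ranges overlapped, and Adcy6 led with the median transcript length. This level of Adcy3 comes from its own row and leaves out a separate row, described below, whose identifier ends in the same digits. By CPM the Adcy3 row had a mean of 207 ± 38.7, Adcy6 184 ± 33, and the Adcy3 row and the separate one together 382 ± 86.8. Whether the separate row counts towards Adcy3 is not known. Of the protein kinase A genes the highest were Prkaca, 96.4% ± 0.579 of its catalytic family, and Prkar2b, 85.5% ± 0.0805 of its regulatory family. Pde3b, which breaks down cyclic AMP under insulin control, held 62.3% ± 4.05 of the phosphodiesterases 3 and 4.

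Adcy3 is the gene whose truncated form gave the series its title. Its row (chr12:4133103-4213525) held 246, 206 and 169 CPM. A separate row, whose identifier has no symbol in the annotation and ends in the same digits as that of Adcy3, held 213, 194 and 119.6 CPM. The latter made up 46.4, 48.5 and 41.5% of their sum. Both rows were highest in replicate 1 and lowest in replicate 3. The sources used here do not say what the separate row stands for.

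Nuclear regulators were also led by single members. Pparg, the receptor that drives fat cell formation, held 83.8% ± 3.2 of its family, Esrra 96.2% ± 0.638 of the estrogen-related receptors, Srebf1 94.6% ± 0.839 of its pair and Thra 86.1% ± 1.71 of the thyroid hormone receptors. Among PGC-1 coactivators Ppargc1b held 78.4% ± 1.74, with 73.9, 60.8 and 47.2 CPM. The cold-inducible Ppargc1a had 22.1, 21.4 and 13.8 CPM. Cebpb had a level of 775 ± 48.1 and Cebpa one of 427 ± 26.8. The early B-cell factors lay close together: Ebf1 had a level of 14.5 ± 3.11, Ebf3 13.4 ± 1.81 and Ebf2 13.3 ± 3.84, and their order differed among libraries.

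**Figure D3:**
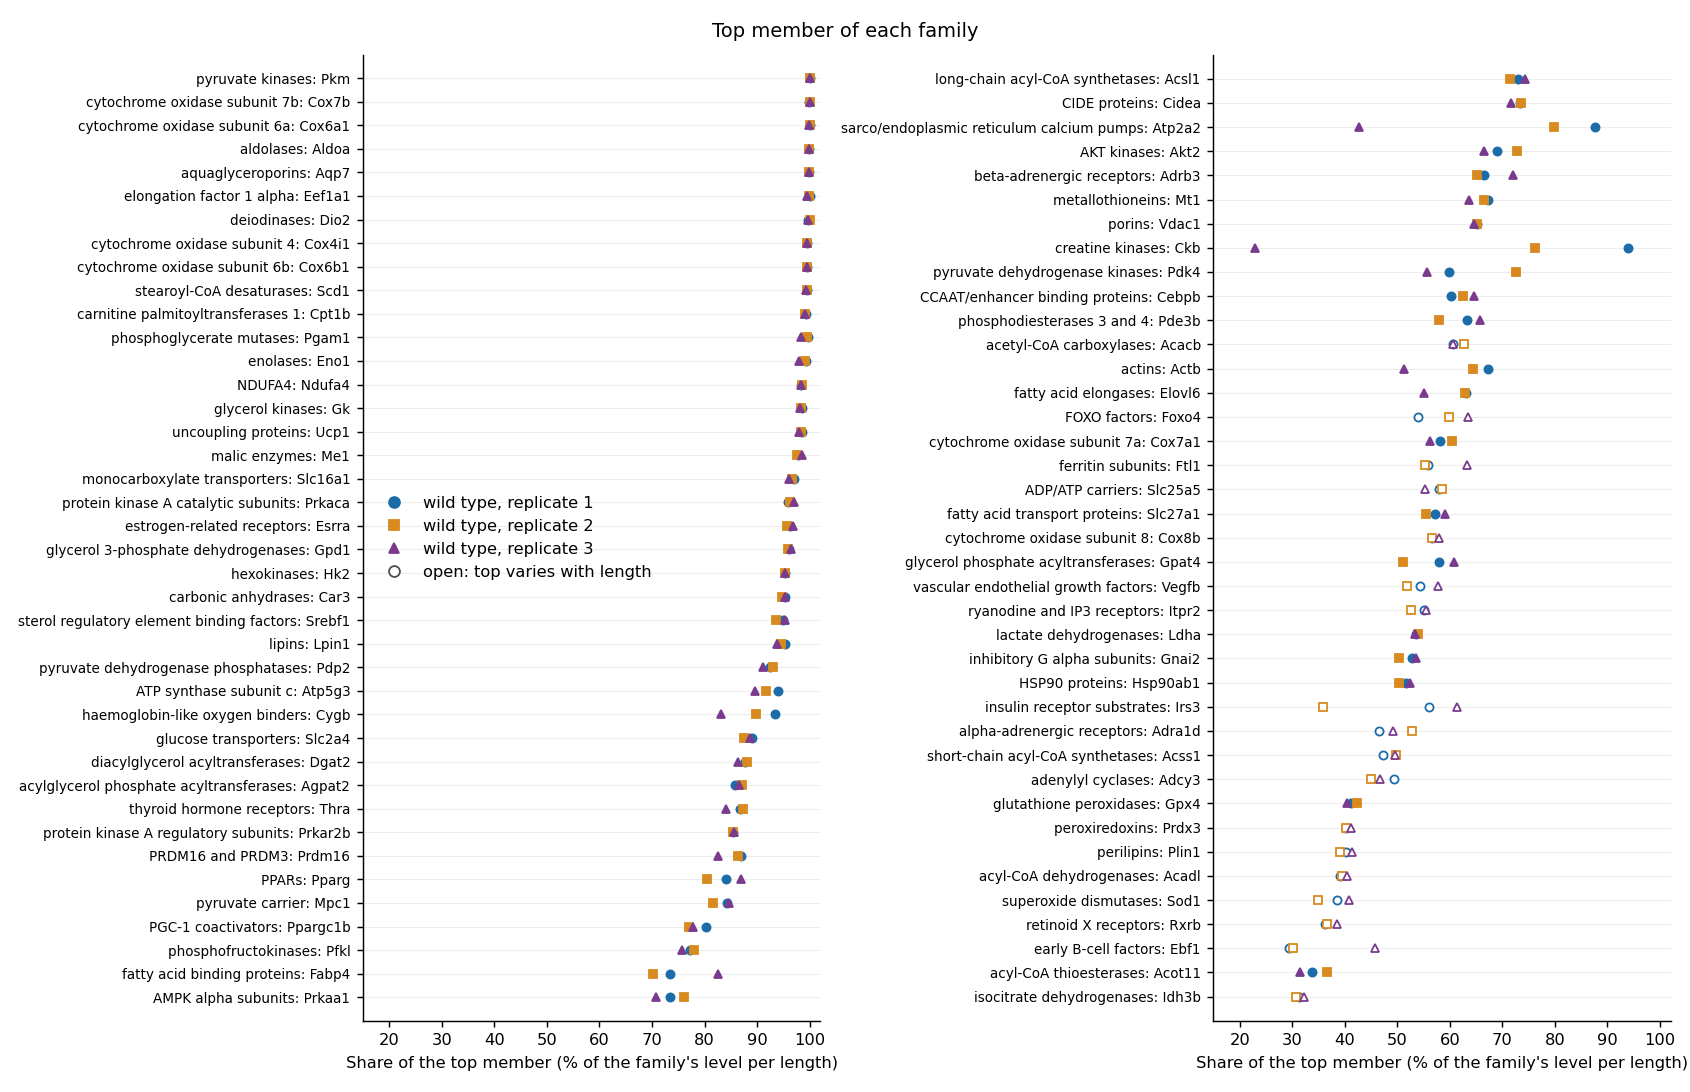
Share (%) of a family's level per length held by its top member, for 79 families named with that member, one symbol per wild-type library. Open symbols mark families whose top member differs with the length used; replicate 3 stands apart for creatine kinases, where Ckb holds 23% there, and for calcium pumps, where Atp2a2 holds 42.7%.

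Among the 5 families whose top member was not the same in all libraries, the early B-cell factors and the retinoid X receptors held members of like level. The insulin receptor substrates were led by Irs3 in replicates 1 and 3 and by Irs2 in replicate 2, as Irs2 held 37.5, 58.9 and 32.9%. The other 2 families contain skeletal muscle genes. Ckb, the creatine kinase of brain and brown fat, held 94, 76.2 and 23% of its family, and the muscle form Ckm had 2.34, 10.4 and 81.6 CPM. Atp2a2 held 87.6, 79.8 and 42.7% of the calcium pumps, and the fast-muscle form Atp2a1 had 4.28, 26.4 and 159 CPM. In replicate 3 the muscle form was the higher per length in both. By CPM, Atp2a1 in that library lay below the mean of Atp2a2, 247 ± 32.3 CPM.

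The ATP synthase c ring showed how a family can turn on a single row. Its identical subunit is encoded by Atp5g1, Atp5g2 and Atp5g3, and Atp5g3 held 94, 91.8 and 89.6%. Atp5g2 had 8.45, 11.9 and 16.8 CPM. Gm10175, a processed pseudogene on chromosome 7, is identical to an Atp5g2 transcript over all its 645 bases and had 199, 188 and 192 CPM. With its counts added, Atp5g2 held 55.7, 56.9 and 54.6% and led the family in every library. Reads from identical sequences cannot be told apart, so the split between these rows is uncertain. Subunit c was the one family of the 80 with a member that gained counts in this way. The addition was tried after seeing the data.

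Other pseudogene rows also matched genes closely. Of 52 pseudogene rows with a mean of at least 10 CPM, 38 matched a transcript of a protein-coding or mitochondrial gene at 98% identity or more over at least 90% of their length, all 18 rows above 50 CPM among them. 16 of these matched ribosomal protein genes and 4 mitochondrial genes. The latter are nuclear copies on chromosome 1: Gm28661 had 2543, 4418 and 2681 CPM and matched mt-Co2 without a mismatch, and Gm10925 had 1548, 2109 and 2329 CPM and matched mt-Atp6. Their CVs, 32.5% and 20.2%, exceeded those of mt-Co2 and mt-Atp6, 6.24% and 3.01%. Gm29216, which matched mt-Co1, had a CV of 34% against 2.14%. Gm28438, which matched mt-Nd3, went the other way, with 2.97% against 7.58%. In 9 cases the pseudogene row had the higher mean CPM of the pair. Rpl5, of the large ribosomal subunit, had 7.37 ± 1.55 CPM and its copy Gm15500 127 ± 7.86 CPM. Rpl12 had 8.39 ± 1.08 CPM and Gm10275 66.2 ± 4.12 CPM. Levels of these genes are uncertain for the same reason.

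Cytosolic ribosomal protein genes took 0.937, 0.892 and 1.02% of the counts, 1.03% ± 0.0707 with the near-identical rows added, less than the citric acid cycle list. Mitochondrial ribosomal proteins held 0.462% ± 0.014. Among cytosolic ones Rplp1 had the highest level per length, 720.4 ± 38.1, and Rpl36 the next, 579 ± 23.1. Rps27 had 5.26, 3.87 and 23.9 CPM and stood highest in replicate 3. Eef1a1, the main elongation factor, had a level of 1476 ± 18.1.

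Secreted factors of fat cells summed to 2118, 1817 and 2603 CPM and were highest in replicate 3. Cfd (adipsin) was the highest per length, with 723, 457 and 1059 CPM, ahead of Adipoq with 550.5, 536 and 680.1 CPM. Leptin (Lep) had 31.5, 19.3 and 63.4 CPM and resistin (Retn) 25.5, 15.5 and 49.2 CPM. All of these had their lowest value in replicate 2 and their highest in replicate 3. Nrg4, a factor secreted by brown fat, was even, at 107, 101.4 and 104 CPM. Defence against reactive oxygen was led by Gpx4 at 1195 ± 164 and Gpx3 at 1079 ± 148, which overlapped.

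Of the lists of genes that respond within hours to the animal's state, the circadian clock had a CV of its sum of 5.58%. Immediate early genes had one of 12.4% and glucocorticoid and fasting genes one of 20.0%. The median CV of the members was 14.0, 22.6 and 16.3% in the same order, so by that measure the immediate early genes varied most. Over all genes the median CV was 16.4% from 1 to 10 CPM and 7.57% from 10 to 100 CPM. Of the listed genes, 15 of 23 immediate early, 16 of 19 clock and 15 of 16 glucocorticoid and fasting genes reached 10 CPM in every library. The part of abundance in the order of these lists was not tested. Of the clock genes, Tef had 270.4, 256 and 221 CPM, Dbp had 74.2, 94.5 and 75.9 CPM and Arntl 2.92, 1.74 and 5.09 CPM, while Per1 had 91.8, 102.3 and 86.6 CPM. Npas2 was under 1 CPM. Among immediate early genes Jund had 67.3, 77.5 and 84.1 CPM and Dusp1 78.6, 94.1 and 83.6 CPM. Nr4a1 differed more, at 113, 209.7 and 140.1 CPM with replicate 2 the highest, and Fos had 7.33, 9.74 and 11.3 CPM. Txnip and Pdk4, of the fasting list, were also highest in replicate 2, at 739, 1145 and 796 CPM and 777, 1343 and 631 CPM. The heat shock genes Hspa1a and Hspa1b lay highest in replicate 3, with Hspa1a at 10.6, 13.8 and 29.5 CPM and Hspa1b at 17.5, 16.7 and 38.3 CPM. Neither the hour of collection nor the feeding state is named in the labels.

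The 3 libraries were alike for most genes. Over the 12427 genes at 1 CPM in all, 77.8% lay within 1.2 times of each other between replicates 1 and 2, 71.1% between 1 and 3 and 65.3% between 2 and 3. Differences past 2-fold numbered 79, 180 and 285. No 2 libraries were duplicates: the mean chi-square per gene with 1 degree of freedom was 6.35, 13.1 and 16.8 for these pairs, where counting noise alone gives about 1. For the 7880 genes with a mean of at least 10 CPM the median CV was 7.26%, and 41 genes exceeded 50%. The common biological coefficient of variation was 12.1%, and 7.38% over replicates 1 and 2 alone. The 10 genes of lowest CV included Psap at 1678, 1678 and 1672 CPM, Lonp1, a protease of the mitochondrial matrix, at 252, 252 and 251 CPM, and Psmd8, of the proteasome, at 157, 157 and 157 CPM.

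Of those 7880 genes, 43 (0.546%) were at least 2 times higher in 1 library than in the mean of the other 2: 2 in replicate 1, 8 in replicate 2 and 33 in replicate 3. Lower by the same ratio were 50 genes: 23 in replicate 1, 18 in replicate 2 and 9 in replicate 3. A gene can pass the filter on its mean through its high library alone, as Pvalb did at 0.973, 2.76 and 26.6 CPM. These counts and the highest CVs rest in part on that filter. Genes of fast skeletal muscle led those high in replicate 3, were also among those low in replicate 1, and filled the 10 highest CVs. Acta1, skeletal actin, had 3.57, 16.2 and 119 CPM. Myh4, a fast myosin heavy chain, had 6.99, 26.8 and 167 CPM, and the troponin gene Tnnt3 1.17, 9.38 and 53.3 CPM. Each was lowest in replicate 1 and highest in replicate 3. Myl1, among the 2 highest of the muscle list per length, varied less, at 53.5 ± 14.7 CPM with a CV of 27.4%. The 20 muscle markers summed to 80.3, 188 and 882 CPM, and 19 reached a mean of 1 CPM. Only 1 of them was at 10 CPM or more in every library. Myh7, of slow fibres, stayed at 0.13, 0.145 and 0.114 CPM. The mean sum was 383 CPM over the 3 libraries and 134 CPM without replicate 3. Its part in the other differences of replicate 3 was not tested.

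Some genes outside the muscle list were also at least 2 times higher in replicate 3, but had their lowest value in replicate 2. Steap4 had 112, 94.1 and 249.5 CPM and Igf1 21.7, 20.8 and 44.2 CPM. Cyp2e1, at 145, 50.7 and 200.3 CPM, stood apart mainly by its low value in replicate 2. Others that the muscle list does not name ran in the same order as Acta1, Myh4 and Tnnt3, lowest in replicate 1 and highest in replicate 3. Among them were Pygm at 5.19, 7.7 and 33.1 CPM and Tpm2 at 13.2, 16.4 and 51.6 CPM. Their absence from the list does not mean that they come from cells other than muscle. Low in replicate 3 were Pmepa1 at 217, 276 and 57.6 CPM, Gmpr at 126, 113 and 35.9 CPM and the imprinted Peg3 at 25.2, 29.5 and 6.63 CPM. In replicate 2 the genes at least 2 times higher included Pde2a at 16.8, 58.6 and 17.7 CPM, Irs2, Ppara at 23.2, 47.2 and 17.8 CPM and Sik1 at 57, 112 and 48.7 CPM. These genes were named from the list of 43 and its counterpart of 50 genes lower by the same ratio, after their values were seen.

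**Figure D4:**
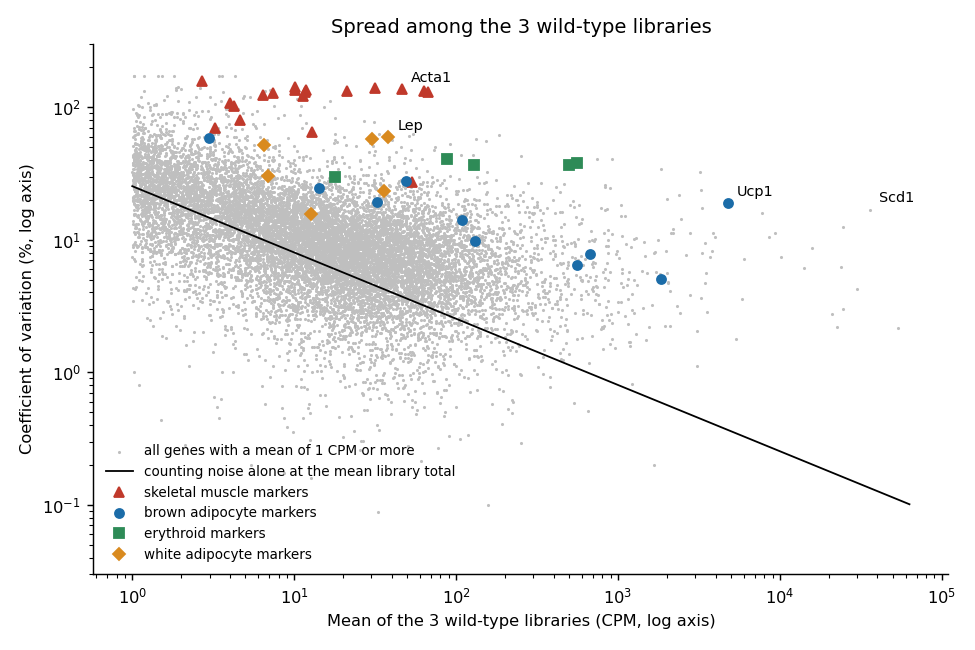
CV among the 3 wild-type libraries (%, log axis) against mean CPM (log axis) for all genes with a mean of 1 CPM or more, with 4 marker lists in colour and a line for counting noise alone at the mean library total. Most of the 19 muscle markers drawn lie at the top of the cloud, Acta1 at 137%, whereas Ucp1 lies at 18.8% and Scd1 at 16.9%.

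The other cell types of the tissue gave smaller differences. Endothelial markers summed to 895, 884 and 815 CPM, with all 12 above 1 CPM and Cdh5 the highest per length, at 187, 190.0 and 177 CPM. Mural cell markers summed to 687, 669 and 622 CPM, led by Rgs5, a pericyte gene, at 311, 308 and 256 CPM. These 2 lists differed little among libraries. Fibroblast and matrix markers summed to 378, 450.0 and 603 CPM, with Dcn at 87.5, 84.4 and 114 and Col3a1 at 113, 142 and 192 CPM, and macrophage markers to 69, 77.6 and 124 CPM, with Lyz2 at 19.9, 21.8 and 32.4 CPM; both were highest in replicate 3. White adipocyte markers summed to 116, 89.4 and 188 CPM and erythroid markers, mostly haemoglobin, to 1329, 792 and 1746 CPM, and both were lowest in replicate 2 and highest in replicate 3. As the median over genes of the log2 ratio to the mean of the 3 libraries, replicate 3 stood at 1.28 for muscle, 0.45 for white adipocyte, 0.35 for fibroblast and -0.01 for brown adipocyte markers, beside 0.01 over all 13110 genes with a mean of 1 CPM. The part of these cell types in the values of other genes was not tested.

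**Figure D5:**
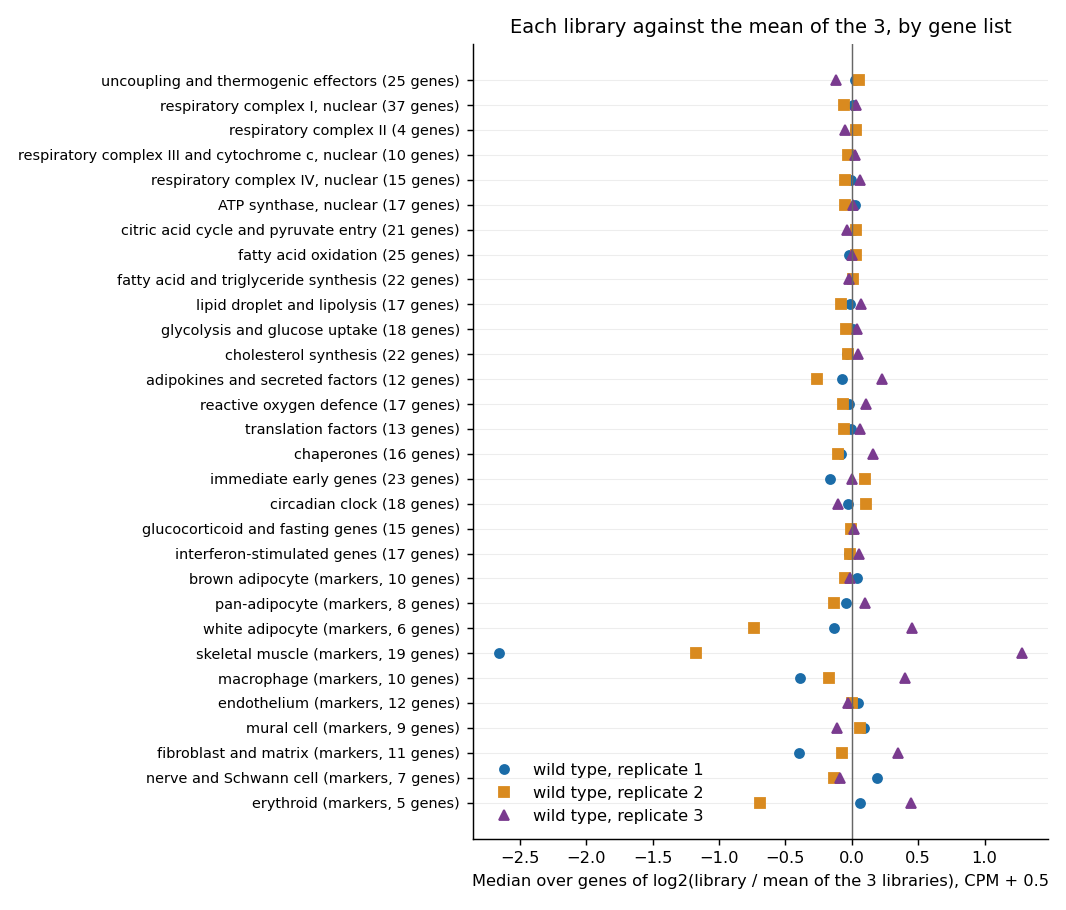
Median over a list's genes of the log2 ratio of each wild-type library to the mean of the 3 (0.5 CPM added), for pathway and marker lists with at least 3 genes at a mean of 1 CPM. Metabolic lists lie near 0 in all libraries, while skeletal muscle markers run from -2.66 in replicate 1 to 1.28 in replicate 3.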

How the data were processed

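PolyA RNA of 3 wild-type libraries was measured by paired-end sequencing. The authors deposited estimated counts per gene for all 6 libraries in one table, as its values show, where 38.4% of the wild-type values above 0 are whole numbers within 0.00050. The submitters' processing notes name StringTie, Salmon, edgeR and the build GRCm38; the sources used here give no versions, aligner or use of strand, and reads of antisense or overlapping genes cannot be told apart. Deposited counts were taken unchanged, and rounded for edgeR and DESeq2.

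Symbols, biotypes, positions and lengths came from GENCODE M21 on GRCm38, which held 54131 of 54385 row identifiers; the 254 others held 0.0255% of the counts. CPM used library totals. Levels per length used merged exons. The spread was described by the CV and by edgeR's common dispersion with TMM factors over genes past its filter on low counts. Pseudogene rows were compared with transcripts by blastn 2.17.0, and promoter windows came from RefSeq. R 4.3.3, edgeR 4.0.16, DESeq2 1.42.0, Python 3.11.15 and pandas 2.3.3 were used. The spread and the search for genes high in 1 library were tested on simulated data. There is 1 group, and no test was made.

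The members, the 20 pathway, 13 marker and 80 family lists were chosen with earlier results of these data known, and 1 listed gene had no match. Genes were named by rule: the 25 highest levels and 10 highest CPM, the 3 highest of each pathway and its members under 1 CPM, the 2 highest of each family, the 2 highest and the lowest of each marker list, the 10 highest and 10 lowest CVs at a mean of 10 CPM, the 5 highest long noncoding genes and both Adcy3 rows; not all are printed, and other members of the lists were named for their role. Alternatives were other scaling factors, lengths, filters and leaving out each library. Some genes and 1 family are not reported here. Counting limits cover counting error only.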

Additional observations from a re-analysis of the deposited data

How the results depend on the processing

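No paired analysis was possible because there is 1 group and no test. TMM and DESeq2 factors moved no mean CPM of the genes recomputed by more than 1 SD. Among these were Ucp1, Scd1, Fasn, Gpd1, Cidea, Fabp4, Adipoq, mt-Co1 and Atp5b. The factors lay between 0.986 and 1.019, so a mean over the same 3 libraries could hardly move, and the comparison decides little. Shares of counts rest on the denominator and on length. Of counts without mitochondrially encoded genes the shares were 6.16% for nuclear oxidative phosphorylation, 11.9% for fatty acid and triglyceride synthesis, 3.77% for fatty acid oxidation, 3.55% for citric acid cycle and pyruvate entry, 2.3% for glycolysis and glucose uptake, 1.25% for cytosolic ribosomal proteins, 1.49% for uncoupling and thermogenic effectors. Of the level per length they were 5.45% for nuclear oxidative phosphorylation, 3.42% for fatty acid and triglyceride synthesis, 1.76% for fatty acid oxidation, 1.2% for citric acid cycle and pyruvate entry, 0.906% for glycolysis and glucose uptake, 1.13% for cytosolic ribosomal proteins, 1.45% for uncoupling and thermogenic effectors, and 52.7% for all mitochondrially encoded genes. The genes holding 50% of counts, from the mean of the 3 libraries, numbered 124, and 368 without mitochondrially encoded genes. Genes high in 1 library numbered 18 at a ratio of 3 and 351 with a mean of at least 1 CPM. Leaving out a library in turn gave a common biological coefficient of variation of 7.38 to 14.5% and a median CV of 4.45 to 7.45%, the lowest each time without replicate 3. Genes detected numbered 17299 at 0.1 CPM and 13110 by mean CPM. The main top member was kept in 69 of 80 families with the median transcript length, 74 with the longest, 72 with the principal one, 66 by CPM and 79 with near-identical pseudogene rows added. Ucp1 ranked 19 among nuclear genes with the median transcript and 7 by CPM; the cause was not tested. The principal transcript was a choice made after seeing the data. The 3 libraries limit the precision of every SD. Strand and multi-mapping rules are unknown, which leaves genes with near-identical copies uncertain.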

Other observations

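Long noncoding genes took 0.967, 0.912 and 0.932% of the counts in replicates 1, 2 and 3, and 720 of 9757 rows reached a mean of 1 CPM. Neat1, the scaffold of nuclear paraspeckles, had 2376, 2264 and 1875 CPM and Malat1, a nuclear speckle RNA, 1666, 1563 and 1613 CPM. Per length Malat1 was the higher, at 433 ± 17.5 against 196 ± 26.7. AC160336.1 came next by counts, with 506, 455 and 514 CPM over 93147 bases of merged exons and a level of only 9.89 ± 0.602. 1700020I14Rik had 145, 135 and 132 CPM. The first 2 thus held most of what the leading 5 took.

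Interferon-stimulated genes summed to 1122, 1089 and 1106 CPM, of which Ifi27 gave 943, 914 and 914 CPM. Isg15 had 1.04, 1.6 and 1.6 CPM and Mx1, an antiviral GTPase, 0.128, 0.0727 and 0.172 CPM, and Ifi27 gave most of the list's sum. Chaperones of the mitochondrial matrix led their list: Hspa9 had a level of 463 ± 33.2 and Hspd1 one of 401 ± 33.7. Car3, a carbonic anhydrase, held 95.1% ± 0.358 of its family, at 4002, 3354 and 4169 CPM, and ranked 13 among nuclear genes per length. Glul, glutamine synthetase, ranked 18, with 3632, 3490.2 and 4020.2 CPM. Cygb, cytoglobin, had a level of 31.6 ± 2.79, above myoglobin (Mb) at 4.02 ± 2.72. Among lipins Lpin1 held 94.5% ± 0.739. The perilipins were shared by Plin1 with 40.2% ± 1.14 and Plin2 with 29.5% ± 2.07.

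Zc3h11a has 2 overlapping rows on chromosome 1, both annotated as protein-coding. The first had 28.1, 57.3 and 30.0 CPM and the second 29.5, 1.14 and 22.7 CPM in replicates 1, 2 and 3. Replicate 2 was the highest library of the first and the lowest of the second, and reads of overlapping rows cannot be told apart. The processed pseudogene Gm10163 had 15.7, 0 and 16.7 CPM, with 0 in replicate 2. These rows were chosen after their values were seen.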
